A study of Homo sapiens with 2 samples.

Results

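The genes described here serve the exit of cholesterol from lysosomes and from cells, or regulate cell cholesterol. They are the sterol exporters ABCA1 and ABCG1, the apolipoprotein APOE and the ubiquitin ligase MYLIP. The others are the liver X receptors NR1H3 and NR1H2 and the lysosomal genes NPC1, NPC2 and LIPA. All 9 were chosen by name, with earlier results of these data known. Every probe set that the platform annotation gives to one of them was used, bright or dim. This found 24 probe sets for 8 of the 9 genes, out of 37145 probe sets that name exactly 1 gene and 18392 genes on the array. No probe set was assigned to NR1H2 here, so it is not analysed.

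The study concerned fluphenazine, a phenothiazine antipsychotic, as an agent against castration-resistant prostate cancer, and used 2 microarrays of PC3 cells. PC3 is an established human line that was derived from a prostate cancer metastasis in bone, and both cultures grew in medium with serum. The control array was made from cells treated with DMSO, the drug's solvent, and the other from cells treated with 10 µM fluphenazine, for a time that the sources used here do not give. Since each treatment has a single array, no value below has a replicate error or a test, and every difference is between these 2 arrays.

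Cholesterol taken up in lipoproteins reaches the lysosome as esters. The acid lipase LIPA frees it, the soluble protein NPC2 binds it and passes it to the membrane protein NPC1, and from there it leaves for other membranes. Cells with surplus sterol make oxysterols, which bind the liver X receptors, and these raise ABCA1 and ABCG1, which hand sterol to lipoproteins, APOE, which receives it, and MYLIP, which marks the low-density lipoprotein receptor for breakdown. Phenothiazines belong to the cationic amphiphilic drugs, a class known to collect in acidic organelles.

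The promoter of ABCA1 is shown because ABCA1 had the largest difference that all bright probe sets of a member shared, and because it carries the textbook element of the liver X receptors. The sequence is that of RefSeq on GRCh38.p14, chr9:104928156-104928405, minus strand, the 250 bases before the annotated start. Capitals mark an E-box (CACGTG, from -147 to -142) and a direct repeat of the kind these receptors bind (from -69 to -54).
ABCA1 promoter: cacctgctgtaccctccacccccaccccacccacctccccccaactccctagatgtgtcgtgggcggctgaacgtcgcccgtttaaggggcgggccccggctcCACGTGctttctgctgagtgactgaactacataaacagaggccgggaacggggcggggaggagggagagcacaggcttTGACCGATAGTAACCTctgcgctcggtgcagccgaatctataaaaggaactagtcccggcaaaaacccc
The receptors bind 2 copies of AGGTCA with 4 bases between them. Read on the opposite strand, the ABCA1 repeat has this form with 2 mismatches in its 12 fixed letters, C5T in the first copy and A1C in the second, counted from 1 at the 5′ end of each copy.
ABCA1 repeat: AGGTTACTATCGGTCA

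Of 35116 promoters of the same length in the RefSeq table, 2.03% held this repeat with at most 2 mismatches on either strand, and 6.34% held an E-box. The table has 16 promoters for 8 of the genes, with none for ABCG1. In this window, 1 of the 16 held an E-box and 1 held the repeat with at most 2 mismatches, in both cases that of ABCA1. With at most 1 mismatch, the repeat was in 0.174% of all promoters and in none of the 16. For the E-box, 1 of 16 is close to the share over all promoters, so it is no result about these genes. The core of the CLEAR element of lysosomal genes (TCACGTGA, exact, which contains the E-box) was in 0.854% of all promoters, and the core of the sterol regulatory element (TCACCCCAC, exact, either strand) in 0.362%. Neither was in any of the 16. Sequence outside this window and inexact forms of these 2 cores were not searched, so such elements may be present. A match is a description of the letters, and no binding was measured.

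Deposited values are log2 signals, and a difference is the fluphenazine value minus the DMSO value. A probe set is called bright when at least 1 of its 2 values was 6.19 or more, a floor set at the median of the higher value over all genes. The floor ranks signals and does not call a gene detected. Signals of different probe sets are not compared with each other, since each has its own affinity. Probe sets of one gene read the same RNA on the same arrays and are no replicates. As a scale for each difference, the text gives the share of probe sets of like signal that lay at least as far in the same direction, taken within 10 classes of equal size ranked by the mean of both arrays.

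The RNA had the profile of an epithelial line. All 6 epithelial markers and all 3 of the group VIM, CD44 and CAV1 were bright. Of the androgen-dependent prostate markers, 4 of 6 had a probe set here, and KLK3 and TMPRSS2 were above the floor while KLK2 and FOLH1 were under it. Macrophages are the cells best known for sterol efflux, and all 5 of their measured markers were under the floor on both arrays, between 1.95 and 4.97. Both measured leukocyte markers and the 1 measured red cell marker were also under it, as were all endothelial and fibroblast markers but PECAM1 and COL1A1. All 24 probe sets of the bacterial poly-A spike-ins, which are added to the RNA before labelling, had lower values with fluphenazine, with a median log2 difference of -0.22. Their part in the differences below was not tested. All 37145 probe sets had a median difference of -0.01.

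Most member probe sets had a higher signal on the fluphenazine array, by small amounts. Of 24, 19 were higher and 5 lower, with a median of 0.19, where 48.3% of all probe sets were higher. Since the genes were chosen with earlier results of these data known, this excess is no test. The 13 bright probe sets had a median of 0.17, with 11 higher and 2 lower. The 11 dim ones had a median of 0.24, with 8 higher and 3 lower. Only 2 of the 24, one of ABCG1 and one of APOE, were at least 1.5-fold higher, against 0.767% of all probe sets, and none was at least 1.5-fold lower, against 0.953%. At 2-fold, the ABCG1 probe set alone was higher, against 0.0404% of all, and none was lower, against 0.0754%. Among bright probe sets, where the background was 0.314% higher and 0.341% lower, none was lower by as much. The one of APOE was higher by as much, but it passed the floor only through its fluphenazine value, so its count among bright probe sets supports nothing.

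**Figure D1:**
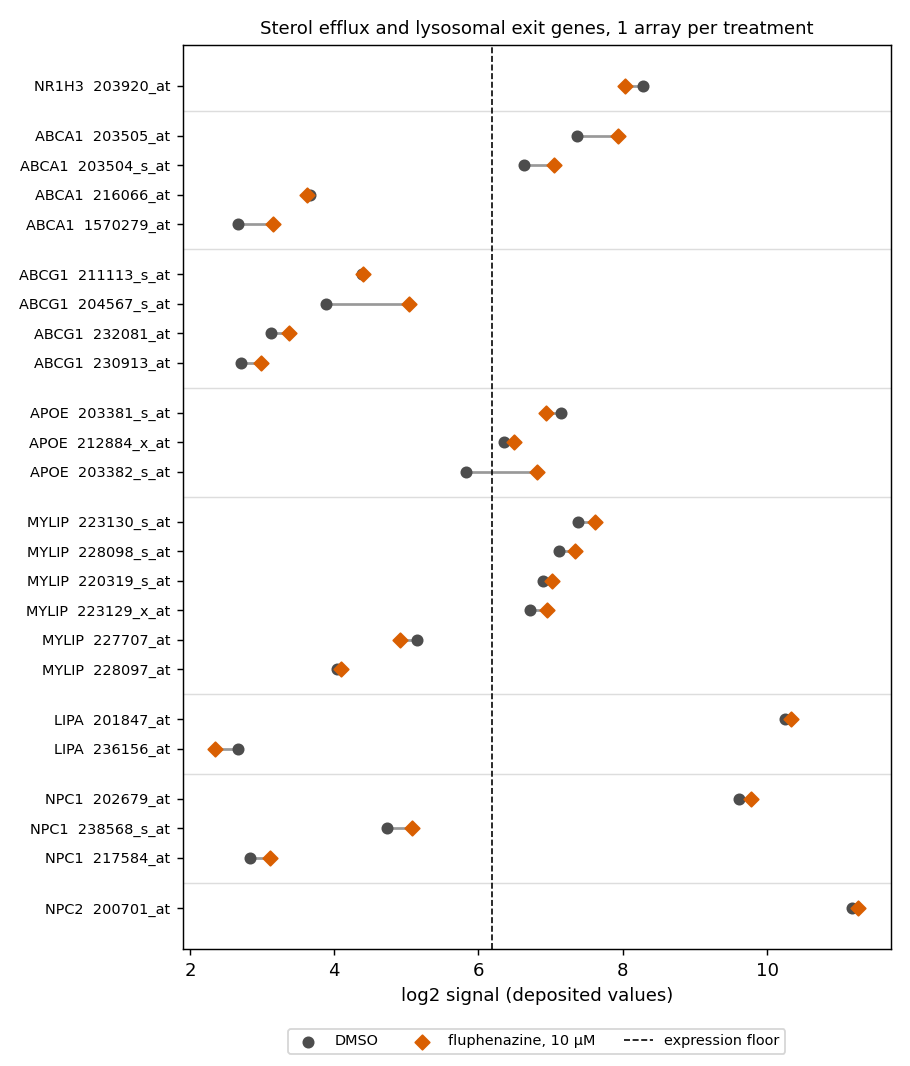
Log2 signal (x axis) of each of the 24 member probe sets (rows, grouped by gene) on the DMSO array (grey circles) and the fluphenazine array (orange diamonds), with 1 array per treatment and the expression floor of 6.19 as a dashed line. The widest gaps are those of an ABCG1 probe set (1.15) and an APOE probe set (0.99), while the other probe sets of these genes moved little or the opposite way.

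NR1H3, the liver X receptor that acts mainly in macrophages, liver and fat, was lower with fluphenazine. Its single probe set read 8.28 with DMSO and 8.03 with fluphenazine, a difference of -0.24, or 1.18-fold lower. Of 3714 probe sets of like signal, 5.47% fell at least as far on the lower side. NR1H3 and the brightest probe set of APOE were the 2 bright readings that were lower. Of the 17 probe sets, bright or dim, of the receptor target genes ABCA1, ABCG1, APOE and MYLIP, 14 were higher, against 48.3% of all probe sets. The 17 come from 4 genes, chosen with earlier results of these data known. They are no replicates, and they include ABCG1 211113_s_at at 0.004. Of the 7 bright probe sets of other target genes, 2 were higher and 5 lower.

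ABCA1, which loads cholesterol and phospholipid onto lipid-poor apolipoproteins, was higher on both of its bright probe sets. Probe set 203505_at read 7.37 with DMSO and 7.93 with fluphenazine, a difference of 0.56, or 1.47-fold, just under the 1.5-fold threshold. Probe set 203504_s_at read 6.63 and 7.05, a difference of 0.42, or 1.34-fold. The bright probe sets therefore pointed the same way. Differences at least as large were found for 0.269% of 3715 probe sets of like signal in the first case and 1.43% of 3714 in the second. By its brightest probe set ABCA1 was among the 32 genes, of 9196 above the floor, with a difference that large or larger.

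The dim probe sets of ABCA1 pointed different ways. Probe set 1570279_at read 2.66 with DMSO and 3.15 with fluphenazine (0.49 higher), and 216066_at read 3.67 and 3.63 (-0.04). Dim probe sets scatter more: the robust SD of all differences was 0.23 in the classes of these 2, against 0.15 and 0.18 in those of the bright pair. The range over the 4 probe sets was 0.60, and 16.4% of the 1243 genes with as many probe sets had a range at least as wide.

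ABCG1, which exports sterol to mature lipoprotein particles, had no bright probe set, and the largest single difference among the members was one of its 4. Probe set 204567_s_at read 3.88 with DMSO and 5.04 with fluphenazine, 1.15 higher, or 2.23-fold. Only 4 of 3715 probe sets of like signal, or 0.108%, were higher by at least as much, this one included. The other 3 probe sets did not show a difference of that size.

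Probe set 211113_s_at read 4.39 with DMSO and 4.40 with fluphenazine, a difference of 0.00. On the DMSO array alone it was the brightest of the 4, so the probe set that stands for the gene depends on whether one or both arrays rank them. The dimmest 2 read 3.13 and 3.37 (232081_at, 0.24 higher) and 2.70 and 2.98 (230913_at, 0.28 higher). Differences of at least that size were common at such signals, at 15.8% and 12.3% of probe sets. No ABCG1 probe set was lower with fluphenazine, and the range of 1.15 over the 4 was matched or exceeded by 5 of 1243 genes with as many probe sets, or 0.402%, ABCG1 included.

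**Figure D2:**
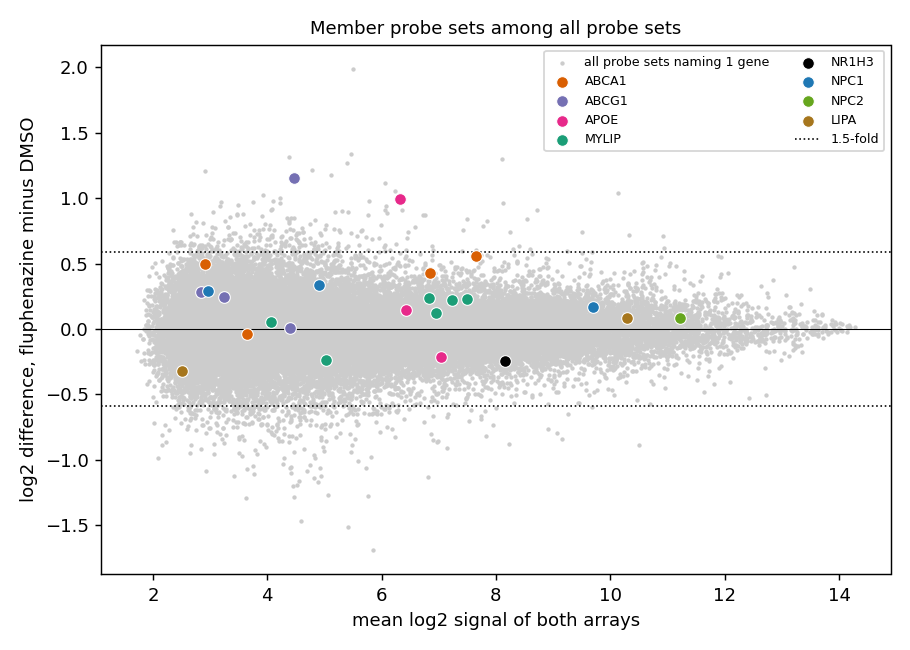
Log2 difference, fluphenazine minus DMSO (y axis), against the mean log2 signal of both arrays (x axis), for all 37145 probe sets naming 1 gene (grey) and the 24 member probe sets (coloured by gene), with 1.5-fold as dotted lines. One probe set each of ABCG1 and APOE lies above the dotted line, 1 of ABCA1 lies just under it at 0.56, and the NPC1, NPC2 and LIPA probe sets with high signal lie between 0.08 and 0.17.

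APOE, the apolipoprotein that carries sterol away from many cell types, gave conflicting readings. Probe set 203382_s_at read 5.82 with DMSO and 6.81 with fluphenazine, 0.99 higher, or 1.99-fold. Only 2 of 3714 probe sets of like signal, or 0.0539%, were higher by at least as much, this one included. Its DMSO value was under the floor, so it counts as bright through the fluphenazine array alone.

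Probe set 203381_s_at read 7.15 with DMSO and 6.94 with fluphenazine, a difference of -0.21, or 1.16-fold lower. Probe set 212884_x_at read 6.35 and 6.50, 0.15 higher, and its suffix says that its probes may also bind other transcripts. Of the 3 probe sets, 1 was thus nearly 2-fold higher, 1 slightly higher and 1 lower. Their range was 1.20. Of 2534 genes with as many probe sets, 8, or 0.316%, had a range at least as wide, APOE included, where the median range was 0.27. Which probe set reads APOE RNA best was not tested, and the sign for the gene depends on the probe set taken.

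MYLIP was higher by small and like amounts on its 4 bright probe sets. They read 7.38 with DMSO and 7.61 with fluphenazine (223130_s_at, 0.23 higher), 7.11 and 7.33 (228098_s_at, 0.22), 6.90 and 7.02 (220319_s_at, 0.12) and 6.71 and 6.95 (223129_x_at, 0.23). These correspond to 1.09-fold to 1.18-fold. All 4 have the suffix _s_at or _x_at, and that of 223129_x_at says that its probes may also bind other transcripts. Shares of probe sets of like signal that were higher by as much ran from 6.08% to 20.4%, so none of these differences was rare by itself. Of the 2 dim probe sets, which have neither suffix, 227707_at read 5.15 and 4.91 (-0.24) and 228097_at read 4.04 and 4.10 (0.05 higher). The range over the 6 was 0.47, close to the median of 0.47 over the 274 genes with as many probe sets.

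**Figure D3:**
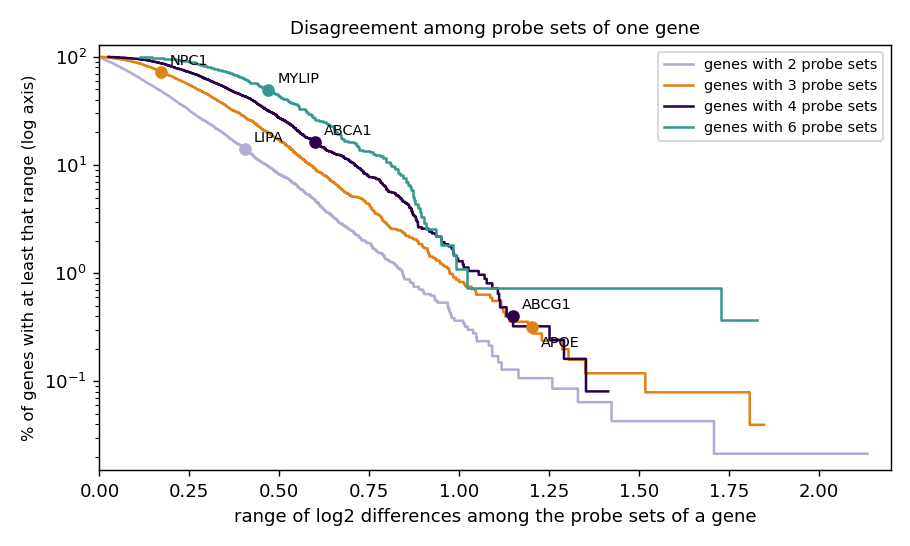
Share of genes (y axis, log scale, in percent) whose probe sets span at least a given range of log2 differences (x axis), drawn for genes with 2, 3, 4 and 6 probe sets, with the members marked as points. ABCG1 (0.402%) and APOE (0.316%) lie far down their curves, while NPC1 (72.8%) and MYLIP (49.3%) lie near the top.

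The lysosomal genes differed least by their brightest probe sets. NPC1, which moves cholesterol out through the lysosomal membrane, read 9.61 with DMSO and 9.78 with fluphenazine on 202679_at, 0.17 higher, or 1.12-fold. Of probe sets of like signal, 11.7% were higher by at least as much. Its dim probe sets read 4.74 and 5.07 (238568_s_at, 0.34 higher) and 2.83 and 3.12 (217584_at, 0.29 higher). All 3 probe sets of NPC1 thus pointed the same way, and their range of 0.17 was narrower than the median of 0.27 for genes with 3.

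NPC2, the soluble carrier that works with NPC1, had 1 probe set, which read 11.18 with DMSO and 11.27 with fluphenazine. The difference was 0.08, or 1.06-fold, and 26.4% of probe sets of like signal were higher by as much. LIPA, the acid lipase, read 10.24 and 10.33 on 201847_at, also 0.08 higher, and 25.7% were higher by as much. Its dim probe set 236156_at read 2.67 and 2.35, a difference of -0.32 at a signal where 8.61% of probe sets were lower by as much. For NPC2 and for the bright probe set of LIPA the difference was smaller than the robust SD of 0.12 in their class of signal.

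Of the 6 members with several probe sets, 4 had probe sets on both sides of zero: ABCA1, APOE, MYLIP and LIPA. In ABCA1, MYLIP and LIPA the readings that went the other way were dim, while in APOE all 3 probe sets counted as bright. By the brightest probe set, 7 members were above the floor, of which 5 were higher and 2 lower (NR1H3, and APOE through the probe set at -0.21), with a median of 0.08. None of the 7 reached 1.5-fold, against 0.283% of all genes above the floor for higher and 0.294% for lower.

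The other genes of sterol traffic were read from 7 lists of 95 genes in all, of which 77 had a probe set here and 48 were above the floor. Of these 48, 29 were higher with fluphenazine and 19 lower by their brightest probe set, with a median of 0.05. Probe set by probe set there was no such excess, with 43 of 87 bright probe sets higher, 44 lower and a median of -0.02. Over all 9196 genes above the floor 48.2% were higher and the median was -0.01. None of the 48 reached 1.5-fold in either direction. SMPD1 counts among the higher genes through its fluphenazine value alone. Single probe sets of OSBPL5, FOXO1 and SREBF2 count among the lower bright ones through their DMSO values alone.

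Partners of the liver X receptors were evenly split, with 3 of 6 genes above the floor higher and a median of 0.00. RXRB, a retinoid X receptor that pairs with them, read 8.63 with DMSO and 8.44 with fluphenazine (-0.20), and its 2 dim probe sets were lower too. The corepressor NRIP1 read 11.60 and 11.80 (0.20 higher), but its other probe set gave -0.09. Other target genes of the receptors were split as well, with 2 of the 4 above the floor higher and a median of -0.01, but of their 7 bright probe sets 2 were higher and 5 lower. With averaged probe sets the median was -0.05. The phospholipid transfer protein gene PLTP read 7.19 and 6.97 (-0.23). The desaturase gene SCD read 11.70 and 11.81 (0.11 higher), while its other 3 probe sets ran from -0.10 to -0.06.

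Of the other exporters and lipoprotein genes above the floor, 3 were higher and 3 lower, with a median of 0.00. SCARB1, the receptor that exchanges sterol with high-density lipoprotein, read 8.67 with DMSO and 8.42 with fluphenazine (-0.25), and all 4 of its probe sets were lower. The transporter ABCA5 read 7.22 and 7.32, and its difference of 0.10 was the largest positive one of the list.

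Genes of late endosomes and lysosomes were mostly higher by their brightest probe sets, with 11 of 14 above the floor higher and a median of 0.06. This lean depended on that choice: over all 28 bright probe sets 17 were higher and 11 lower, and with the probe sets of each gene averaged the median was -0.01. The sterol-binding protein OSBP, which exchanges cholesterol at membrane contacts, read 9.80 with DMSO and 9.93 with fluphenazine, 0.13 higher, and its other 2 probe sets were 0.21 and 0.23 higher. TMEM97, a membrane protein that binds NPC1 and lowers its level, went the other way on all 4 probe sets. They read 10.00 and 9.60 (-0.40), 10.01 and 9.54 (-0.47), 8.02 and 7.64 (-0.38), and 8.12 and 7.50 (-0.62). The last of these was the only bright probe set of the 7 lists past 1.5-fold.

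**Figure D4:**
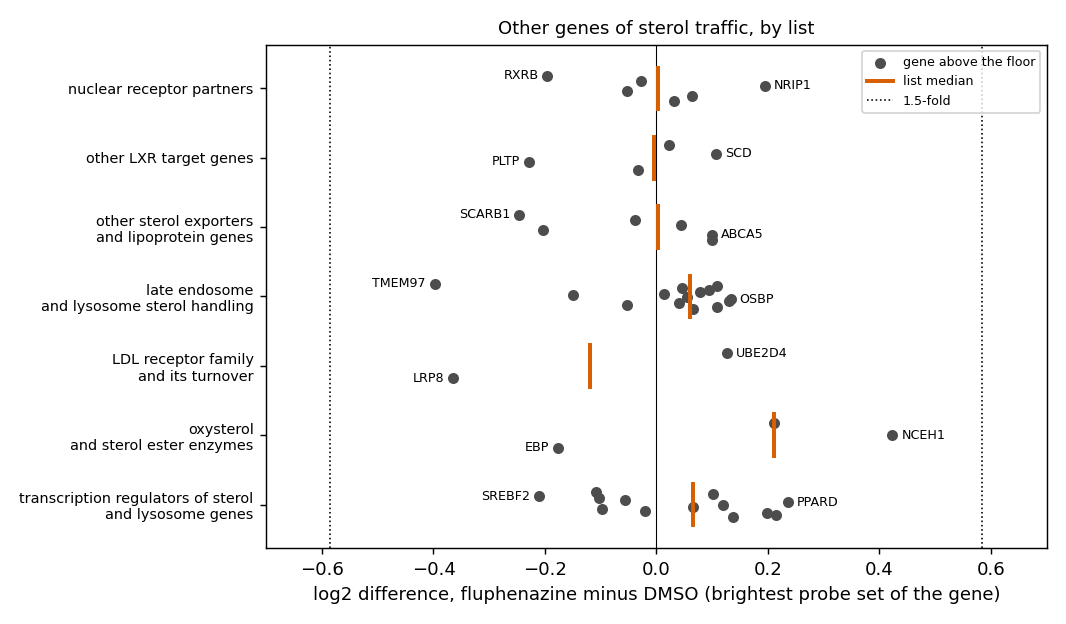
Log2 difference, fluphenazine minus DMSO (x axis), of each gene above the floor (points, brightest probe set) in 7 lists of sterol traffic genes (rows), with the list median as an orange bar, 1.5-fold as dotted lines and the largest difference in each direction named. No point reaches 1.5-fold, and TMEM97 (-0.40) and NCEH1 (0.42) lie farthest out.

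In the list of low-density lipoprotein receptor relatives, on which MYLIP acts, 5 of 12 genes had a probe set here and 2 were above the floor. LRP8, a receptor that MYLIP also marks for breakdown, read 8.95 with DMSO and 8.58 with fluphenazine (-0.37). Its other 2 probe sets disagreed, at 0.09 and -0.19. UBE2D4, a ubiquitin-conjugating enzyme of the family that works with MYLIP, read 7.82 and 7.95 (0.13 higher), and its bright probe sets ran from 0.05 to 0.21.

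Among enzymes of oxysterols and sterol esters, 3 genes were above the floor, with 2 higher, 1 lower and a median of 0.21. Of their 6 bright probe sets 2 were higher and 4 lower. SOAT1 sets that median at 0.21 on its brightest probe set, while its other bright probe set gave -0.05. NCEH1, which hydrolyses cholesteryl esters outside the lysosome, read 8.38 with DMSO and 8.81 with fluphenazine, 0.42 higher, or 1.34-fold, on its only probe set. EBP, a sterol isomerase of cholesterol synthesis, read 10.90 and 10.73 (-0.18), and all 4 of its probe sets were lower.

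Transcription regulators were near even by gene, with 7 of 13 higher and a median of 0.07. Of their 23 bright probe sets 9 were higher and 14 lower, and with averaged probe sets the median was -0.02. SREBF2, which drives cholesterol synthesis genes, read 6.54 with DMSO and 6.33 with fluphenazine (-0.21), and all 3 probe sets were lower, with differences of -0.18 to -0.29. The lipid-sensing receptor PPARD read 9.41 and 9.65 (0.24 higher), though its other bright probe set gave 0.03.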

How the data were processed

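Total RNA was labelled with biotin using a whole-transcript kit, per the labels' protocols. The submitters' processing notes name RMA, Transcriptome Analysis Console 3.1 and Affymetrix Expression Console 1.4, with no role or order. The authors' deposited values were taken as log2 signals from their range, 1.60 to 14.28, and were not normalized again. After sorting, the 2 columns differed by at most 0.13, so a difference is relative to the other genes of the array and not to total RNA. The number of arrays limits the precision. The sources used here do not give a genome build.

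Probe sets were named through the platform annotation of 2016 and symbols updated through the gene identifier. Of 47693 probe sets, 37145 named 1 gene, 1668 named several and were not used, 8821 were unnamed here and 59 were controls. Where 1 value per gene was needed, the probe set whose mean over the arrays was highest stood for the gene, and all member probe sets were reported. From each of 7 pathway lists the gene above the floor with the largest difference in each direction was named. The members, lists and promoter motifs were chosen with earlier results of these data known. Python 3.11.15, numpy 2.4.6, pandas 2.3.3 and statsmodels 0.14.6 (lowess) were used, and the calculation was tested on simulated data.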

Additional observations from a re-analysis of the deposited data

How the results depend on the processing

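No paired analysis was possible because each treatment has 1 array. A value was taken as moved when it shifted by 0.13 or more on the log2 scale, the pooled SD of the differences among bright probe sets of one gene. Median centring, quantile normalization and lowess centring shifted the 8 member differences by at most 0.03 and changed no sign. The choice of probe set mattered more. With the mean of all probe sets the difference was 0.36 for ABCA1, 0.42 for ABCG1, 0.31 for APOE and -0.12 for LIPA. With the median it was 0.26 for ABCG1, 0.15 for APOE and -0.12 for LIPA. With probe sets of no suffix _s_at or _x_at it was 0.24 for ABCG1 and -0.24 for MYLIP, and APOE has no such probe set. Taking the probe set brightest on the DMSO array, an alternative chosen after seeing the data, put ABCG1 at 0.004. At 2-fold, 1 member probe set was higher (ABCG1), and above the floor 1 was at least 1.5-fold higher, that of APOE, which passed the floor only through its fluphenazine value and so is no independent check. Without a floor the median of the low-density lipoprotein receptor list was 0.13 in place of -0.12, and with averaged probe sets that of oxysterol and ester enzymes was 0.071 in place of 0.21. The other 75 of 89 values under alternatives moved by less than 0.13 or kept their count.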

Other observations

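Of the 95 listed pathway genes, 7 had 3 or more probe sets with all of them under the floor. In 2 of these every probe set was higher with fluphenazine, in 5 the probe sets went both ways, and in none were all lower. The exporter ABCG1, described above, also had only dim probe sets and none lower, though 211113_s_at differed by 0.004. This pattern was chosen after the values were seen and is given without a test. Of all probe sets under the floor, 49.1% were higher. The share of all genes with only dim probe sets that show the pattern was not computed. The count is therefore no result about these genes. NPC1L1, the intestinal sterol importer related to NPC1, had log2 differences of 0.23, 0.35 and 0.22. APOA1, the main protein of high-density lipoprotein, had differences of 0.25, 0.48 and 0.27. At such signals the robust SD of all differences was about 0.23, and whether either gene is expressed in PC3 cells cannot be told from these values.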
